A study of Mus musculus with 12 samples.

Results

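The 10 genes described here, Chil3, Ear1, Ear2, Marco, Siglecf, Mrc1, Plet1, Ctsk, Lyz2 and Csf1r, are transcripts by which alveolar macrophages are commonly recognised in mouse lung. They were chosen by symbol, and each matched 1 row of the deposited gene counts, 10 of 55487 genes in all. All 10 passed the filter on low counts and were tested among 45828 genes.

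RNA-Seq was performed on 12 whole lungs of miR-30a -/- mice on a C57BL/6J background, harvested at postnatal day (PND) 21, with 3 lungs for each combination of sex and exposure. Hyperoxia-exposed pups breathed 95% oxygen from PND 1 to PND 5 and then recovered in room air, and the control pups stayed in room air. Every mouse in these groups, controls included, lacked miR-30a through a CRISPR deletion present in all cells, so no group isolates an effect of the deletion, and wild-type lungs were not analysed here. Pups of several litters were pooled and redistributed between the exposures, and the labels number the mice within a sex without saying which litter each came from. The lungs were perfused with saline, which is meant to remove blood but not the macrophages of the airspace. The comparison of interest was hyperoxia against room air in females, in males and in both sexes pooled, with the sex by hyperoxia interaction as the test of a difference between the sexes.

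Alveolar macrophages live on the air side of the alveolus, where they clear surfactant, inhaled particles and dying cells. Fetal monocytes seed them around birth, and they mature in the first postnatal days under GM-CSF made by the alveolar epithelium and under TGF-beta, which act through the transcription factor PPAR-gamma together with the myeloid factors PU.1 and C/EBP. After maturing they largely renew themselves in place, and a neonatal exposure to oxygen therefore falls in the period in which the population is being set up.

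The 10 transcripts differ in how far they point to this cell. Marco (a scavenger receptor), Siglecf (a sialic acid-binding receptor), Ear1, Ear2 (eosinophil-associated ribonucleases), Chil3 (the secreted chitinase-like protein Ym1) and Plet1 (a surface protein) are typical of alveolar macrophages in mouse lung, although eosinophils also carry Siglecf and monocytes also carry Ear2. Csf1r, the receptor for the growth factors CSF1 and IL-34, marks all monocytes and macrophages, and Mrc1, the mannose receptor CD206, is shared with interstitial macrophages. Lyz2, the myeloid lysozyme, is also made by alveolar type 2 cells, and Ctsk, the collagen-degrading protease cathepsin K, by matrix fibroblasts. In whole-lung RNA a smaller number of cells and less RNA per cell cannot be told apart.

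Some of these genes have near-identical copies, which bears on how their reads are counted. Ear1 (chr14:43818765-43875517, minus strand) and Ear2 (chr14:44102654-44103534, plus strand) lie on the same chromosome of mm10, and their coding sequences are identical at 95.1% of 468 aligned columns. The coding bases 96 to 155 hold as many mismatches as any stretch of this length, 5 in all, shown in capitals.
Ear1, most different stretch: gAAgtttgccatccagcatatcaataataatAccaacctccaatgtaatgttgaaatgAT
Ear2, most different stretch: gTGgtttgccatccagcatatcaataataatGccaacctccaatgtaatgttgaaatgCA
A stretch in which both genes have the same letters, coding bases 171 to 230, shows why a read can fail to choose between them.
Ear1 and Ear2, identical stretch: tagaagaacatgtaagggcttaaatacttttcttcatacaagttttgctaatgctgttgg

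Windows of 50 bases were cut from 1 GENCODE transcript per gene, that with the longest coding part. For Ear1, 57.4% of them occur unchanged in another gene's transcripts, chiefly those of Ear-ps9, with Ear2 and Ear10 also among them. For Ear2 the share was 41.5%, chiefly with Ear10, for Chil3 29.4%, chiefly with its neighbour Chil4, and for Lyz2 15.4%, with Lyz1. The share was 0.244% for Siglecf, 0.488% for Plet1 and 0 for Marco, Mrc1, Ctsk and Csf1r. At a window of 100 bases the shares fell to 23.9% for Ear1, 13.9% for Ear2, 5.42% for Chil3 and 1.97% for Lyz2. At that length Ear1 shared windows with Ear-ps9 and Ear10 but not with Ear2. Counts of Ear1, Ear2, Chil3 and Lyz2 are uncertain to this extent, since how shared reads were counted is not given in the sources used here.

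Levels of the secreted products Chil3 and Ear2 moved together from lung to lung, and their promoters are shown for that reason, 250 bases before to 50 bases after the start of the gene, from RefSeq on GRCm38.p6. Capitals mark matches on either strand to TTNNGNAA, letters that C/EBP factors recognise.
Chil3, chr3:106167515-106167814, minus strand: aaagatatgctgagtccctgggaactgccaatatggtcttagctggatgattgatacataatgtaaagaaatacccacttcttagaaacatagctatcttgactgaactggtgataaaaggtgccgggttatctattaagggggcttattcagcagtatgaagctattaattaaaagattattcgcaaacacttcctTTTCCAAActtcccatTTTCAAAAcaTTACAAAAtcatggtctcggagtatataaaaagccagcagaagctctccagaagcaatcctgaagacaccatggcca
Ear2, chr14:44102404-44102703, plus strand: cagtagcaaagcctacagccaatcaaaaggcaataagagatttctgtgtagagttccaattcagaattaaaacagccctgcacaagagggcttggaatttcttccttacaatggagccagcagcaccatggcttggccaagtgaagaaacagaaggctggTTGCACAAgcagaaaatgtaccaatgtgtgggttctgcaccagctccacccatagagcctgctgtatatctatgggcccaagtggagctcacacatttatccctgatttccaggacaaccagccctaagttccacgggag

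Promoters of 9 of the 10 genes were read, that of Csf1r not being used here. TTNNGNAA occurred in 9 of these 9 and in 40.7% of 32851 promoters of the same length. Chil3 held 3 matches and Ear2 held 1. The PU.1 letters GAGGAAGT occurred in 0 of the 9, against 3.2% of all promoters, and the AP-1 letters TGANTCA in 1 of the 9, Plet1, against 7.81%. A motif match describes letters and does not show binding. The Ear1 and Ear2 promoters were identical at 97.0% of 303 aligned columns, so that the resemblance of this pair reaches upstream of the coding sequence.

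Depth ran from 8763033 to 16741694 counts per lung. The share of counts on 2003 olfactory and vomeronasal receptor genes, whose products serve sensory neurons and which stand here for background reads, ran from 0.453% in room air female 5 to 1.04% in hyperoxia male 2. Scaled to exon length, a background of that density would make up 24% of the mean count of Siglecf, 22.3% of Ear1 and 17.9% of Marco, 13.6% to 14.9% of Plet1, Ctsk and Mrc1, 9.01% of Csf1r, 4.02% of Ear2, 1.5% of Chil3 and 0.142% of Lyz2. Room air male 1 and room air female 5 stood apart. The former carried skeletal muscle RNA, with 729 CPM (counts relative to library size, scaled by upper quartile) of the muscle actin Acta1, and the latter had the smallest receptor share and the highest level of 7 of the 10 genes. Mir30a itself had 0 counts in the 12 lungs, but its short hairpin is poorly captured by this kind of library and the value says little about the deletion.

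Levels were compared between genes as CPM per kb of exon. Lyz2 was the most abundant at 808 CPM per kb ± 239 (SD, n = 12), and every lung had more of it than any lung had of Chil3, at 77.2 ± 40.3. Ear2 followed at 29.4 ± 5.49 and did not overlap with Csf1r at 13 ± 1.93. The remaining genes formed a narrow band in which neighbours overlapped, from Plet1 at 8.64, Ctsk at 7.87, Mrc1 at 7.86 and Marco at 6.66 to Ear1 at 5.29 and Siglecf at 4.95 CPM per kb.

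**Figure D1:**
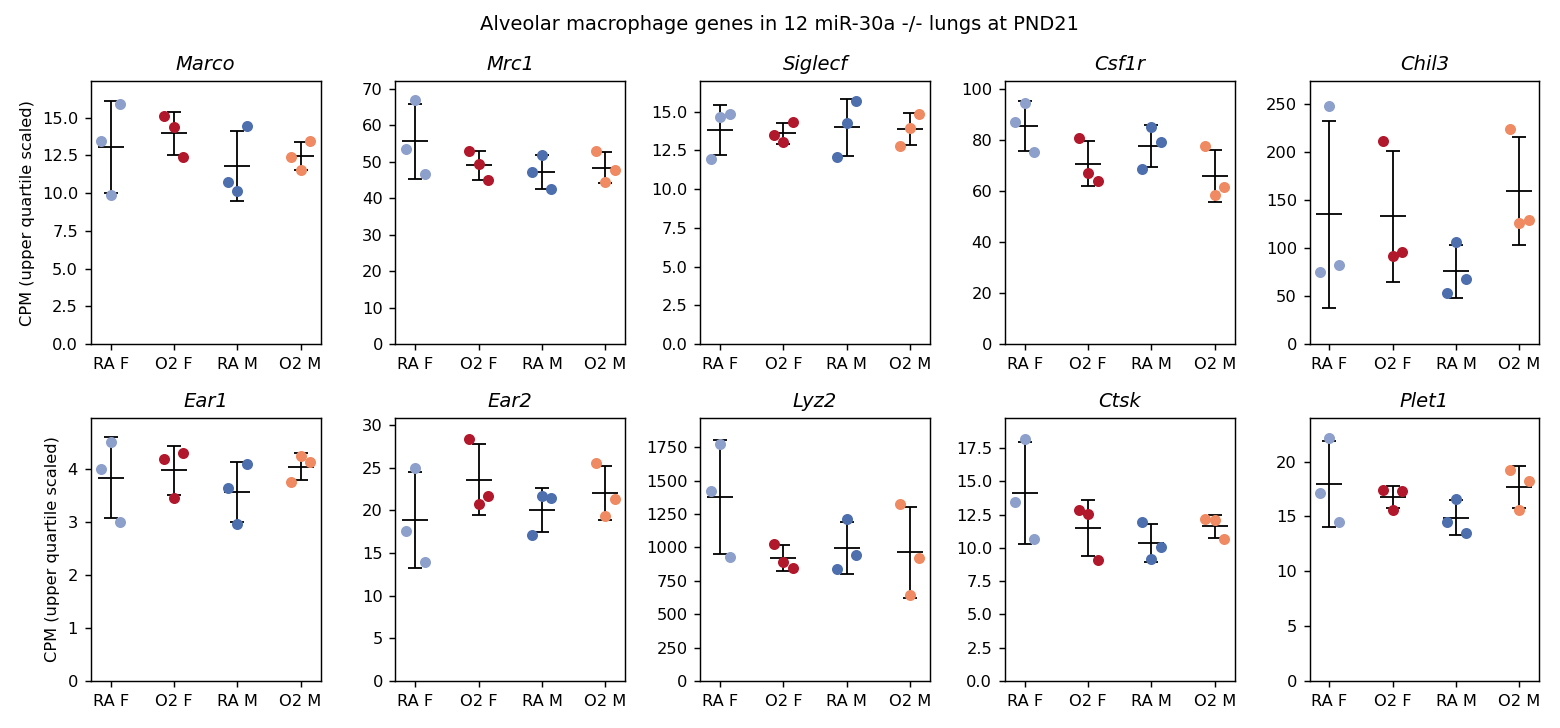
Level of each of the 10 genes in every lung, in CPM scaled by upper quartile (y axis, from 0), for room air (RA) and hyperoxia (O2) females (F) and males (M); points are lungs, bars the mean and SD of 3 lungs. Chil3 in males is the panel in which the room air and hyperoxia points are separate, with all hyperoxia males above 125 CPM and all room air males below 107 CPM.

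Hyperoxia did not lead to a called change in any of the 10 genes at PND21. A gene was called when its adjusted p from edgeR's quasi-likelihood test was below 0.05 and its fold change exceeded 1.5. By this rule 0 of the 10 were called in females, 0 in males, 0 with both sexes pooled and 0 in the interaction. At an unadjusted p below 0.05 the count was also 0 of 10 in each of these 4 tests, against 12.6% of all genes in females, 2.7% in males, 5.2% pooled and 8.46% in the interaction, and DESeq2 called 0 of 10 in each. Few genes of any kind were called: 0.00218% of all genes tested in females, 0.0% in males, 0.0415% pooled and 0.0% in the interaction. The median log2 fold change of the 10 was -0.06 in females, 0.11 in males and 0.03 pooled, beside 0.11, -0.01 and 0.03 for all genes tested.

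Among the receptors, Siglecf was the steadiest of the 10. Its level was 11.9, 14.6 and 14.9 CPM in the room air females and 13.5, 13.02 and 14.4 CPM in the hyperoxia females. In males it was 12.04, 14.3 and 15.7 CPM in room air and 12.8, 13.9 and 14.8 CPM after hyperoxia. The groups lay within each other, and the coefficient of variation over the 12 lungs was 8.53%, the smallest of the 10 genes. This is the spread of total counts, of which estimated background would make up 13.8% to 37.2% by lung. The spread above background was not tested. The pooled log2 fold change was -0.02 ± 0.11 (SE, n = 6 per exposure), with a 95% interval from -0.24 to 0.21.

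Marco, which binds particles and bacteria, behaved in the same way. It was at 13.5, 9.86 and 15.9 CPM in room air females and at 15.1, 14.4 and 12.4 CPM in hyperoxia females, and at 10.7, 10.2 and 14.5 CPM in room air males against 12.4, 11.5 and 13.4 CPM in hyperoxia males. The groups overlapped in both sexes. Its pooled log2 fold change was 0.09 ± 0.13, with an interval from -0.17 to 0.35. Room air female 5, which had the highest level of 7 other genes of the set, had the lowest of Marco.

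Mrc1 was at 46.6 to 66.9 CPM in room air females, 44.9 to 52.9 CPM in hyperoxia females, 42.6 to 52.0 CPM in room air males and 44.4 to 52.9 CPM in hyperoxia males, with overlap throughout. The pooled log2 fold change was -0.07, with an interval from -0.32 to 0.18.

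Csf1r was lower on average after hyperoxia in both sexes, but did not pass the test. Room air females had 87.0, 94.7 and 75.4 CPM and hyperoxia females 80.8, 67.3 and 64.2 CPM. Room air males had 68.7, 85.1 and 79.5 CPM and hyperoxia males 77.7, 58.6 and 61.6 CPM. In each sex the highest hyperoxia lung reached into the room air range. The log2 fold change was -0.28 ± 0.19 in females, -0.24 ± 0.19 in males and -0.26 ± 0.13 pooled, where the unadjusted p was 0.065 and the edgeR adjusted p 0.927. With the share of counts on receptor genes added to the fit, the female value was -0.029. Another alternative put residual factors of unwanted variation in the fit (RUVr, a method used by the study). These factors were estimated from the residuals of the same fit, so they take up spread between lungs of a group. Small adjusted p-values with them are therefore not separate evidence of a change. The pooled Csf1r value was then -0.26 with an adjusted p of 0.0011 for 1 factor and 0.00083 for 2 factors, below the fold of 1.5 (range of the adjusted p over all alternatives 0.00083 to 1.0).

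Of the secreted products, Chil3 had the widest range, 4.64-fold between the lowest and the highest lung. Room air males had 53.5, 107 and 67.5 CPM and hyperoxia males 225, 126 and 129 CPM. All 3 hyperoxia males thus lay above all 3 room air males, which was true of 2.73% of all genes tested. The mean was 76.0 ± 27.7 CPM (SD, n = 3) in room air and 160 ± 56.1 CPM after hyperoxia, a log2 fold change of 1.07 ± 0.50 (SE), but the interval ran from -0.01 to 2.16, the unadjusted p was 0.052 and the edgeR adjusted p was 1.00.

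In females, by contrast, Chil3 was at 75.0, 248 and 82.2 CPM in room air and at 212, 92.3 and 95.6 CPM after hyperoxia. Each exposure thus held 1 lung above 200 CPM, and the log2 fold change was -0.02 ± 0.49, with an interval from -1.09 to 1.05. Its direction rested on these lungs, being 0.76 without room air female 5 and -0.53 without hyperoxia female 2. The difference between the sexes was itself not detectable, with an interaction of -1.10 ± 0.70 on the log2 scale and an edgeR adjusted p of 0.584. The Chil3 interaction ran from -1.61 without hyperoxia female 2 to -0.31 without room air female 5.

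Ear2 had 17.6, 25 and 13.9 CPM in room air females and 28.3, 20.7 and 21.7 CPM in hyperoxia females. In males it had 17.1, 21.7 and 21.4 CPM in room air and 25.5, 19.4 and 21.3 CPM after hyperoxia. The highest lung of all was a hyperoxia female and the lowest a room air female, yet room air female 5 exceeded 2 of the 3 hyperoxia females. The log2 fold change was 0.32 ± 0.18 in females, with an interval from -0.05 to 0.69, and 0.23 ± 0.13 pooled, with an unadjusted p of 0.080.

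Ear1, at 3.0 to 4.52 CPM in room air females and 3.45 to 4.30 CPM in hyperoxia females, was the least abundant per lung and rested on at most 71 counts. In males its range was 2.96 to 4.10 CPM in room air and 3.77 to 4.25 CPM after hyperoxia. The pooled log2 fold change of 0.11 had an interval from -0.25 to 0.47, so that a change of either sign up to these bounds was not resolved in these lungs.

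Lyz2 was lower on average in hyperoxia females. Its level was 1419, 1777 and 928.6 CPM in the room air females and 1026, 890.7 and 843.9 CPM in the hyperoxia females, whose highest lung exceeded the lowest control. Room air males had 834.6, 1212 and 941.8 CPM and hyperoxia males 1325, 646.0 and 920.5 CPM, and here each group held both high and low lungs. The log2 fold change was -0.58 ± 0.34 in females, with an unadjusted p of 0.103 and an interval from -1.28 to 0.12, and -0.05 ± 0.34 in males. Without room air female 5 the female value was -0.35. With 1 RUVr factor the female value was -0.53 with an adjusted p of 3.9e-08, and with 2 factors -0.53 with 1.2e-07, again below the fold of 1.5 (range over all alternatives 3.9e-08 to 0.999). The Lyz2 interaction was -0.53 ± 0.48 with an edgeR adjusted p of 0.653, and -0.45 with an adjusted p of 0.00084 for 1 RUVr factor (range over all alternatives 0.00084 to 1.0). Leaving out single lungs moved this interaction from -0.77 to -0.24.

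Lyz2 and the 10 markers of alveolar type 2 cells had the same lungs at their extremes. The summed level of these markers ran from 6841 to 13127 CPM in room air females and from 6442 to 8291 CPM in hyperoxia females, and 10 of the 10 had a negative log2 fold change in females, with a median of -0.47. In males 9 of the 10 had a positive one, with a median of 0.16. Room air female 5 was the highest lung for Lyz2 and for the markers, at 13127 CPM of the markers, and hyperoxia male 2 the lowest, at 5316 CPM. The part of the epithelium in the Lyz2 values was not tested. Lyz1, the other mouse lysozyme, had 107, 146 and 120 CPM in room air females and 58.9, 70.2 and 59.7 CPM in hyperoxia females, so that these groups did not overlap, with a log2 fold change of -0.98 ± 0.23 and an edgeR adjusted p of 0.182.

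The remaining members showed no separation in either sex. Ctsk was at 10.7 to 18.2 CPM in room air females and 9.11 to 12.9 CPM in hyperoxia females, and at 9.13 to 11.96 CPM in room air males and 10.6 to 12.2 CPM in hyperoxia males. Its log2 fold change was -0.30 ± 0.18 in females and 0.16 ± 0.19 in males, and the interaction of -0.47 ± 0.26, with an unadjusted p of 0.089, had the smallest p among the 10 interactions. Without room air female 5 its female value was -0.076, and leaving out single lungs moved its interaction from -0.64 to -0.24. Plet1 was at 14.5 to 22.2 CPM in room air females and 15.6 to 17.4 CPM in hyperoxia females, and at 13.5 to 16.6 and 15.6 to 19.3 CPM in the corresponding males. Its log2 fold change was -0.10 in females and 0.26 in males, and its interaction of -0.35 had an unadjusted p of 0.124. That interaction ran from -0.50 to -0.17 when single lungs were left out.

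**Figure D2:**
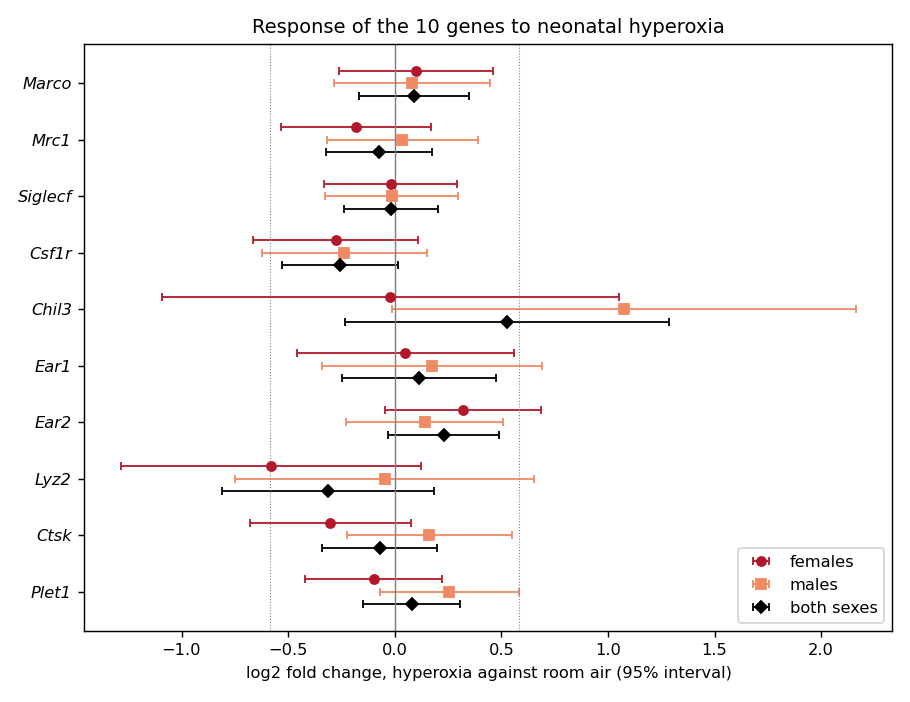
Log2 fold change of hyperoxia against room air for the 10 genes (x axis) with its 95% interval, in females (circles), males (squares) and both sexes (diamonds); dotted lines mark a fold of 1.5. All intervals include 0, and that of Chil3 is the widest, from -0.01 to 2.16 in males.

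Counting non-overlap gave the same picture. In females 0 of the 10 genes had hyperoxia and room air groups that did not overlap, where 17.2% of all genes tested did. With both sexes pooled the count was 0 of 10, against 0.214% of all genes. In males it was 1 of 10, Chil3, against 6.62% of all genes, a share near that of the 10.

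The female values of several members differed when the receptor share was added to the fit. Libraries with a small receptor share had more Lyz2: room air female 5 had the smallest share and the most Lyz2, and hyperoxia male 2 the largest share and the least. The total level of Siglecf did not follow the share, its highest lung being room air male 5 with a share of 0.851%. Estimated background would make up 13.8% to 37.2% of Siglecf counts by lung. Its level above that background was not compared with the share. With the receptor share added to the fit, Ear2 was called in females, at a log2 fold change of 0.72 and an adjusted p of 0.0057 (range over all alternatives 0.0057 to 0.841), and its pooled value was 0.38 with an adjusted p of 0.012. When single lungs were left out instead, the female Ear2 value ran from 0.14 without room air female 6 to 0.58 without room air female 5. Under the same covariate Chil3 in females moved from -0.02 to 0.86, Lyz2 from -0.58 to 0.020 and Csf1r from -0.28 to -0.029, and none of these passed the test. Subtracting the estimated background from the counts instead gave 0.24 for Chil3, -0.32 for Lyz2, -0.11 for Csf1r and 0.57 for Ear2 in females, with 0 of the 10 called, and the part of background reads in these values was not tested. In males the covariate left Chil3 at 0.90 and Ear2 at 0.04. The receptor share differed between the female groups, at 0.453% to 0.819% in room air and 0.738% to 0.936% after hyperoxia, so that with 3 lungs a group the share and the exposure are partly confounded in females.

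**Figure D3:**
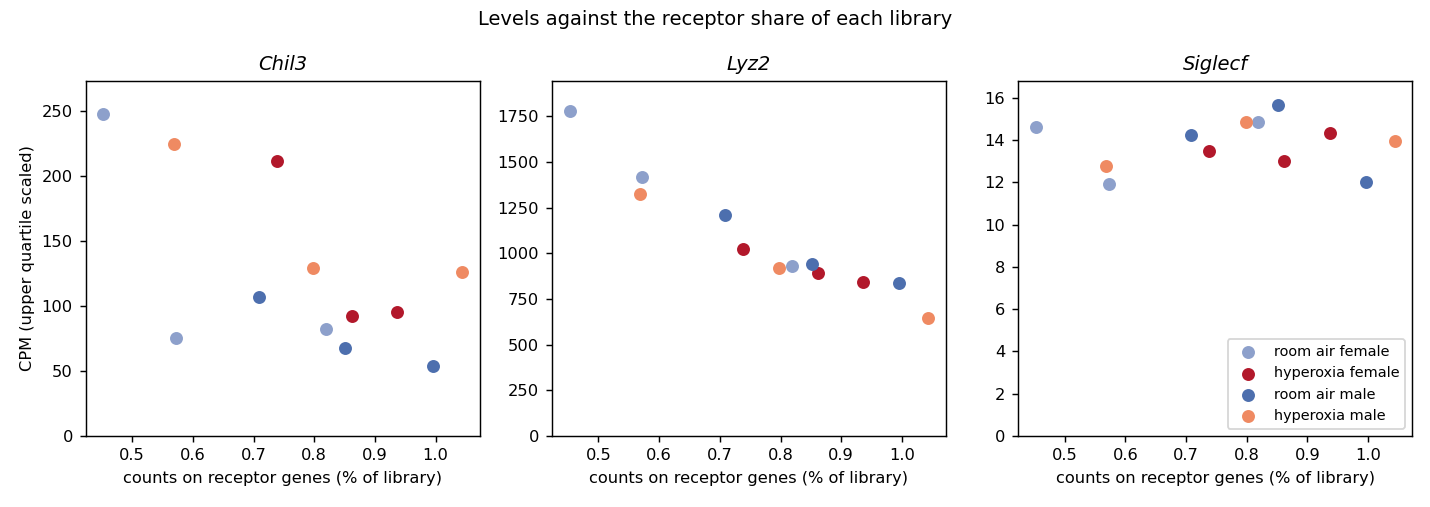
Level of Chil3, Lyz2 and Siglecf in CPM (y axes, from 0) against the share of each library's counts on receptor genes (x axis, %), 1 point per lung, coloured by group. Lyz2 is at 1777 CPM at a share of 0.453% and at 646.0 CPM at 1.04%, while Siglecf, background included, stays between 11.9 and 15.7 CPM.

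**Figure D4:**
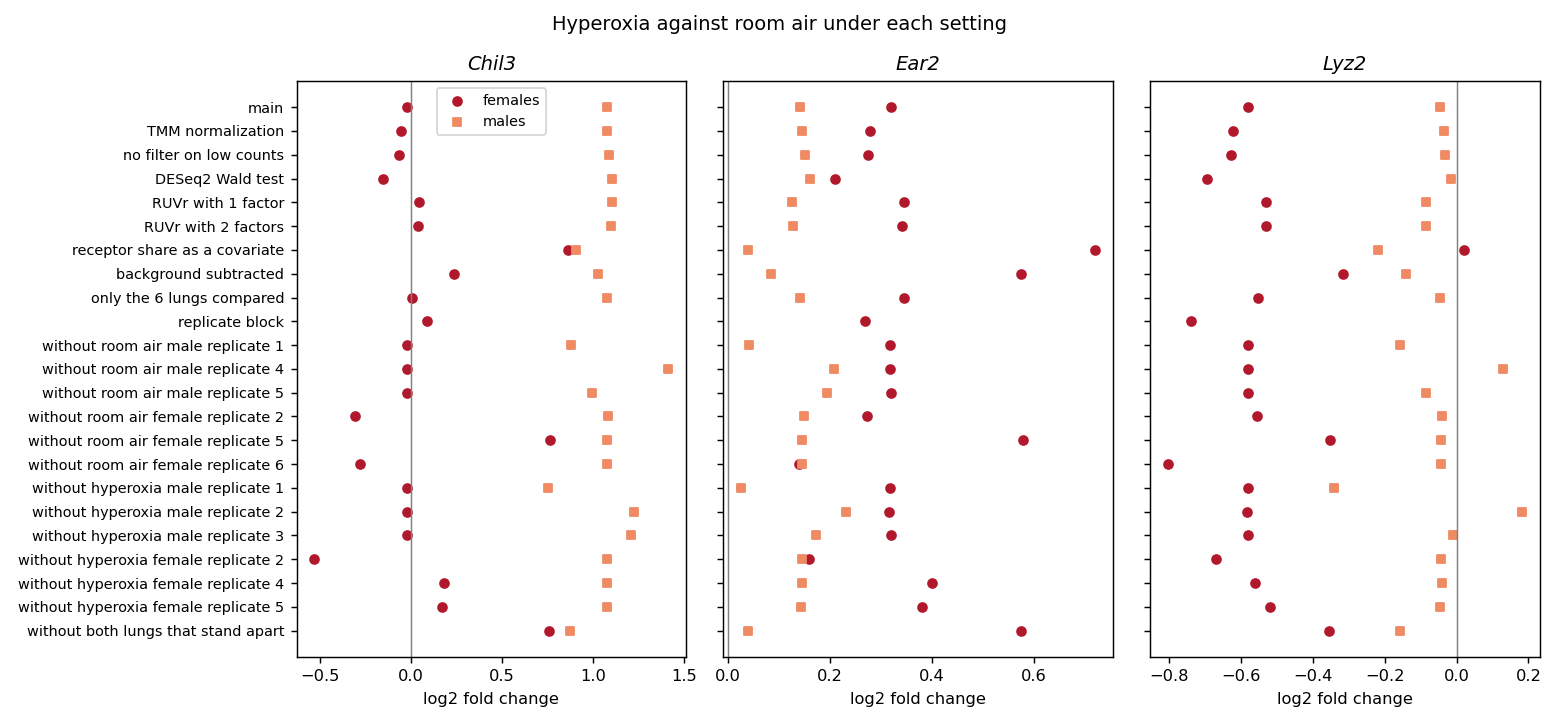
Log2 fold change of Chil3, Ear2 and Lyz2 in females (circles) and males (squares) under the main fit and each alternative (rows). Chil3 in females changes sign between settings, from -0.53 to 0.86, while in males it stays between 0.75 and 1.41.

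Other alveolar macrophage genes gave a similar result. Of 22 further genes of these cells 22 were tested and 0 called in any comparison, and none was at 0 in any lung. Their pooled log2 fold changes were positive for 8 and negative for 14, with a median of -0.06. Fabp5, a fatty acid-binding protein, had -0.11, Itgax, the integrin CD11c, -0.06, and Bhlhe41, a transcription factor that limits their proliferation, -0.07. The smallest p-values belonged to Il18, an inflammasome cytokine, at -0.31 with an unadjusted p of 0.033, Krt79, a keratin, at 0.21, and Ear10, another ribonuclease of the Ear family, at 0.45, all with an edgeR adjusted p of 0.927. The Ear10 value was 0.034 without hyperoxia male 3, and Ear10 rested on 6 to 40 counts per lung. A background of the receptor genes' density would make up 62.6% of the mean count of Ear10, 51.6% of Bhlhe41, 35.8% of Krt79 and 71.1% of Msr1, a scavenger receptor with the highest such share of the 22, so counts above 0 do not by themselves show expression of these genes. Their summed level was 390.4 to 509.4 CPM in room air lungs and 384.7 to 457.2 CPM in hyperoxia lungs.

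The signals that form alveolar macrophages had no call either. Of 16 ligands, receptors and transcription factors of the GM-CSF, TGF-beta and CSF1 pathways 0 were called. In females 14 of the 16 had a negative log2 fold change, with a median of -0.36, and in males 6 of the 16, with a median of 0.06. At an unadjusted p below 0.05, 7 of the 16 were lower in females, against 5.28% of all genes, and 0 in males, against 1.8%. In females 4 of the 16 had hyperoxia lungs all below the room air lungs, against 6.42% of all genes. The values of alveolar type 2 cell genes and of the receptor share in these female lungs are given with the general macrophage genes, and their part was not tested. Pparg, which directs the lipid programme of these cells, had -0.02 pooled and Csf2, the gene for GM-CSF, 0.25. The smallest pooled p-values belonged to Cebpb, Spi1 (the gene for PU.1) and Csf1. Cebpb had 23.9 to 54.2 CPM in room air lungs and 20.6 to 32.9 CPM in hyperoxia lungs, a log2 fold change of -0.46 ± 0.14 with an unadjusted p of 0.0022 and an adjusted p of 0.701. Spi1 had -0.32 ± 0.10, with an unadjusted p of 0.0046 and an adjusted p of 0.830 (range over all alternatives 0.00056 to 1.0, the lowest with 2 RUVr factors), and Csf1 -0.23 ± 0.12, with 0.060 and 0.927 (range over all alternatives 0.019 to 1.0).

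Genes shared by all macrophages had mostly negative log2 fold changes after hyperoxia. Of 13 such genes, which include antigen-processing and signalling components, 0 were called, but 12 had a negative log2 fold change in females and 12 pooled, with medians of -0.49 and -0.31. Of all genes tested 39.0% had a negative value in females, 52.0% in males and 44.0% pooled. In females 9 of the 13 had hyperoxia lungs all below the room air lungs, against 6.42% of all genes, and 8 of the 13 were lower at an unadjusted p below 0.05, against 5.28% of all genes. With both sexes pooled 6 of the 13 were lower at that p, against 2.52%. In males 10 of the 13 had a negative log2 fold change, with a median of -0.12, and 1 of the 13 had hyperoxia lungs all below the room air lungs, against 3.89% of all genes, and 1 was lower at an unadjusted p below 0.05, against 1.8%. No test was made of the list against other genes, and the same room air females, among them room air female 5, enter every one of the female values. In the same female lungs the log2 fold change was negative for 10 of 10 alveolar type 2 cell genes, with a median of -0.47, for 8 of 8 matrix fibroblast genes, with -0.42, and for 4 of 5 airway epithelial genes, with -0.55. The male medians of these lists were 0.16, -0.375 and -0.20. The receptor share was 0.453% to 0.819% in room air females and 0.738% to 0.936% in hyperoxia females, and the part of these values in the macrophage result was not tested.

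Tyrobp, the adaptor of activating myeloid receptors, had the smallest p of this list. Its level was 28.4, 37.6 and 34.8 CPM in room air females, 22.9, 23.7 and 24.1 CPM in hyperoxia females, 25.6, 33.2 and 27.9 CPM in room air males and 25.3, 22.6 and 21.0 CPM in hyperoxia males. All 6 hyperoxia lungs lay below all 6 room air lungs. The pooled log2 fold change was -0.42 ± 0.11 with an unadjusted p of 0.00046, but an adjusted p of 0.355. The adjusted p was 0.0055 with the receptor share added to the fit, at -0.38, and 2.9e-05 with 2 RUVr factors, at -0.42 and below the fold of 1.5 (range over all alternatives 2.9e-05 to 1.0). Ctss, the lysosomal protease cathepsin S, had -0.45 ± 0.13 and Fcer1g, another receptor adaptor, -0.38 ± 0.11, with adjusted p-values of 0.595 and 0.718. Over all alternatives the adjusted p ran from 0.00033 to 1.0 for Ctss, which had 0.0099 with the receptor share, and from 0.00011 to 1.0 for Fcer1g, the lowest being RUVr fits. Adgre1, the gene for the F4/80 antigen by which macrophages are stained in lung sections, had 23.99 to 32.2 CPM in room air lungs and 22.7 to 28.6 CPM in hyperoxia lungs, a log2 fold change of -0.20 ± 0.11 with an adjusted p of 0.927.

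**Figure D5:**
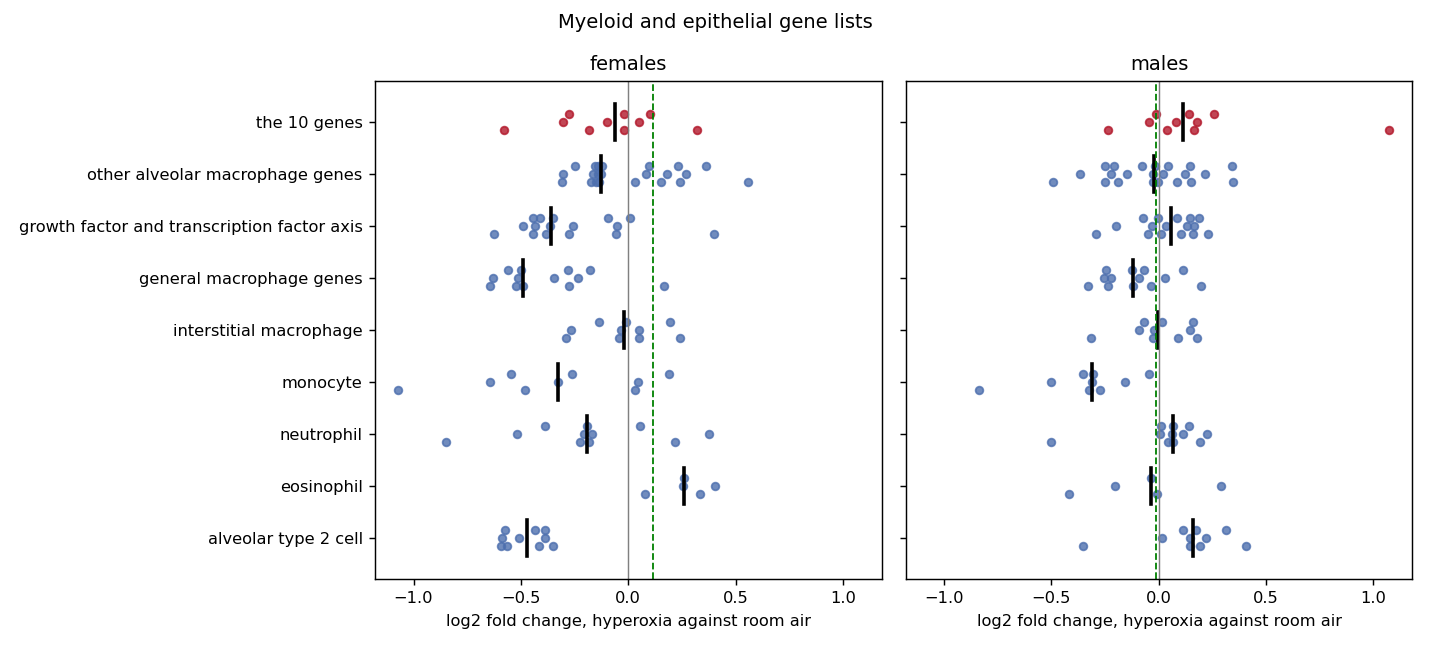
Log2 fold change of hyperoxia against room air (x axis) for each gene of the 10 and of 8 further lists (rows), in females and in males; each point is 1 gene, black bars are list medians and the dashed line is the median of all genes tested. In females the general macrophage genes have a median of -0.49 and the 10 genes one of -0.06, beside 0.11 for all genes.

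Monocyte genes held the 1 call among the myeloid lists. Plac8, a small cysteine-rich protein of monocytes and granulocytes, had 21.3, 23.9 and 44.2 CPM in room air females and 12.7, 17.3 and 12.5 CPM in hyperoxia females, and 19.8, 22.5 and 16.4 CPM in room air males against 9.53, 12.7 and 10.8 CPM in hyperoxia males. The groups did not overlap within either sex. It fell by 0.95 ± 0.15 on the log2 scale with both sexes pooled (edgeR adjusted p = 0.0069), with -1.07 in females and -0.84 in males. The call was lost, with the value between -1.06 and -0.91, after the receptor share was added to the fit (adjusted p = 0.052), with background subtracted (adjusted p = 0.326) and without hyperoxia female 5 (adjusted p = 0.057). Of the 9 monocyte genes 9 had a negative pooled log2 fold change, against 44.0% of all genes, with a median of -0.27, and 1 was called, against 0.0415%; Ly6c2, which marks inflammatory monocytes, had -0.40 and Ms4a4c -0.52, with adjusted p-values of 0.927 and 0.841, and Ly6c2 had -0.19 without room air female 6. Adgre4, an adhesion receptor of monocytes and macrophages that was in none of the lists and was picked out after its values were seen, fell by 0.61 ± 0.10 on the log2 scale with an adjusted p of 0.0069. Red cell genes were lower in the same lungs: of 11 tested, a list made after the called genes were seen, 11 had a negative pooled value, with a median of -1.11, and 5 were among the 19 genes called. Their summed level was 5793 to 8362 CPM in room air females and 1383 to 3160 CPM in hyperoxia females, and 5412 to 7768 CPM in room air males and 2305 to 4935 CPM in hyperoxia males. The part of blood left in the lungs in the monocyte values was not tested.

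The markers of other cells that share members with alveolar macrophages were also measured. Interstitial macrophage genes had a pooled median of -0.01 over 10 genes with 0 called, where Cx3cr1, the fractalkine receptor, had -0.29 with an adjusted p of 0.868 (range over all alternatives 0.0055 to 1.0), Folr2 0.19 and Ms4a7 0.11. Of 5 eosinophil genes 0 were called, with a pooled median of 0.04 and with Prg2, the granule major basic protein, at 0.35, Prg3 at 0.15 and Ccr3 at -0.08. In females 5 of the 5 had a positive log2 fold change, with a median of 0.26, and in males 4 of the 5 a negative one, with a median of -0.04. Their summed level, relevant to Siglecf and the Ear genes, was 32.2 to 39.1 CPM in room air females and 38.1 to 43.0 CPM in hyperoxia females. In males it was 39.3 to 42.3 CPM in room air and 35.5 to 45.7 CPM after hyperoxia. Neutrophil genes had a pooled median of -0.03 over 11 genes, with S100a9 at -0.39, Csf3r at -0.23 and Mmp8 at -0.09. Without room air female 5 the S100a9 value was -0.14 and that of Csf3r -0.089. Dendritic cell genes had 0.06 over 8, with Xcr1 at -0.21, Siglech at 0.21 and Flt3 at 0.10, and 0 were called in either list. Leaving out single lungs moved the pooled value of Folr2 from 0.12 to 0.28 and of Ms4a7 from 0.054 to 0.19. It moved Prg3 from 0.079 to 0.19, Ccr3 from -0.15 to -0.026 and Xcr1 from -0.28 to -0.13. Matrix fibroblast genes, relevant to Ctsk, had a pooled median of -0.47 over 8 genes with 0 called, and 5 of the 8 were lower at an unadjusted p below 0.05, against 2.52% of all genes.

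From lung to lung the 10 genes did not move as a single block. Over the 45 pairs of members the Pearson r of log2 CPM across the 12 lungs had a median of 0.27 and ran from -0.42 for Marco with Plet1 to 0.88 for Lyz2 with Csf1r, values given as a description of lungs that differ in exposure, sex and receptor share. Chil3 and Ear2 had an r of 0.76, and of 0.90 after the group means were removed, when Lyz2 with Csf1r also had 0.90. The genes whose pattern was most like the mean of the 10, among 41153 genes and by the same measure, were Qars, Otub2, Nupr1, Slc44a3, Zfp629, St6gal1, B930095G15Rik, Itpr3, Apoe and Gm11201, with r from 0.92 to 0.93. The mean of the 10 was highest in room air female 5, the lung with the smallest receptor share, and lowest in room air male 1, the lung with muscle RNA.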

How the data were processed

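Total RNA of 12 whole lungs was sequenced after rRNA depletion. The deposited values are raw counts per gene, made by the authors with featureCounts from reads trimmed by Trim Galore and aligned to mm10 by STAR, per the labels, with no scaling. The strand setting, the treatment of shared reads and the annotation release are not given in the sources used here. Labels and paper name different library kits.

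Counts were fitted with robust quasi-likelihood models in edgeR (4.0.16, R 4.3.3), with 4 groups of 3 lungs, upper quartile scaling and filterByExpr, which kept 45828 of 55487 genes (biological coefficient of variation 0.177). P-values were adjusted over all genes tested by Benjamini and Hochberg, and intervals come from the same fit. Replicates are separate mice. Alternatives were TMM, no filter, DESeq2 (1.42.0), RUVr with 1 or 2 factors, the receptor share in the fit, background subtraction, 6-lung fits, the replicate block and leaving out lungs; leaving out both lungs that stand apart was chosen after seeing the data. The edgeR fit was tested on simulated data. Exon lengths and coordinates are from GENCODE M21, matched for 55227 genes, and promoters from RefSeq (GRCm38.p6). Each count column matched 1 sample, and 0 columns of values had none.

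The members and lists were chosen with earlier results of these data known. Named genes were all members, for each list every called gene and the 3 with the smallest pooled p, Adgre1, close paralogs and the 10 genes most like the members' mean. Fabp5, Itgax, Bhlhe41, Pparg, Csf2, Msr1 and Adgre4 were named outside this rule, after their values were seen.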

Additional observations from a re-analysis of the deposited data

How the results depend on the processing

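With 3 lungs a group, single lungs set the value of a sex for Chil3, whose female interval spans changes of more than 1.5-fold in both directions. Among the 10 members, Siglecf, Ear1 and Marco had the largest estimated background, up to 37.2% of a lung's counts for Siglecf.

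The count of called members was 0 under all alternatives in males, in both sexes pooled and in the interaction, and in females it was 0 except with the receptor share in the fit, where it was 1, Ear2. The count of all genes called moved far more, from 1 in females to 0 with TMM normalisation or background subtracted, 8 with no filter on low counts, 14 with both lungs that stand apart left out, 22 with the receptor share in the fit, 44 with DESeq2, 80 with only the 6 lungs compared in the fit, 1903 with 1 RUVr factor and 1931 with 2. In males it went from 0 to 2 with only the 6 lungs compared in the fit, 6 with the receptor share, 16 with 1 RUVr factor and 64 with 2. Pooled it went from 19 to 10 with background subtracted, 40 with DESeq2, 92 with 1 RUVr factor and 110 with 2, and in the interaction from 0 to 2101 and 2194 with 1 and 2 RUVr factors. The cause was not tested. Leaving out each lung in turn gave 0 to 206 called genes in females (206 without room air female 6), 0 to 1 in males, 3 to 37 pooled (3 without hyperoxia female 5) and 0 in the interaction, and 0 called members throughout.

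The animal numbers shared between exposures did not pair the lungs: the deviations of same-numbered lungs from their group means had correlations of 0.06, -0.17 and -0.30 for females 2 and 5 and males 1. With the animal number as a replicate block, only lungs whose number occurs in both exposures inform the exposure value. These numbers are 2 and 5 in females and 1 in males. The other lungs drop out of the exposure value, so few lungs carry these results. In this fit 451 genes were called in females and 2 pooled, and 0 members were called. Plac8 was at -0.91 pooled with an adjusted p of 1.0. The males share 1 number, so they were not fitted alone.

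None of the members was called in the main analysis, and the following values, all with uncalled main values, had the opposite sign. With TMM normalisation this was Marco -0.022, with no filter Marco -0.031 and with DESeq2 Marco -0.084, each in the interaction, and Ear1 -0.056 in females with DESeq2. RUVr gave Chil3 0.046 in females with 1 factor and 0.040 with 2, and Marco -0.00081 in the interaction with 2. The receptor share in the fit gave in females Chil3 0.86, Marco -0.018, Mrc1 0.048, Plet1 0.16 and Lyz2 0.020, in males Mrc1 -0.019, pooled Mrc1 0.015, Ctsk 0.00071, Lamp3 0.015 and Flt4 0.030, and in the interaction Marco -0.14, Mrc1 0.067, Lyz2 0.24 and Csf1r 0.27. Background subtraction gave in females Chil3 0.24, Siglecf 0.068 and Plet1 0.079, in males Mrc1 -0.0025, pooled Siglecf 0.025, and in the interaction Siglecf 0.086 and Csf1r 0.21. The 6 female lungs alone gave Chil3 0.0073 and Siglecf 0.0076. The replicate block, which rests on the lungs with a shared number, gave Chil3 0.089 and Siglecf 0.10 in females, and Siglecf 0.077 and Ccr3 0.060 pooled. Without both lungs that stand apart the values were in females Chil3 0.76, Marco -0.073, Siglecf 0.025 and Plet1 0.083, pooled Marco -0.027, Mrc1 0.0024, Ctsk 0.099 and Acta1 0.025, and in the interaction Marco -0.092, Siglecf 0.14 and Csf1r 0.12. Leaving out each lung in turn moved in females Chil3 from -0.53 to 0.76, Ear1 from -0.10 to 0.18, Marco from -0.070 to 0.25, Siglecf from -0.11 to 0.029 and Plet1 from -0.24 to 0.086. In males it moved Marco from -0.0017 to 0.26, Siglecf from -0.11 to 0.077, Mrc1 from -0.031 to 0.12 and Lyz2 from -0.34 to 0.18. Pooled it moved Siglecf from -0.064 to 0.030, Mrc1 from -0.13 to 0.0062, Ctsk from -0.15 to 0.046, Flt4 from -0.14 to 0.0059, Acta1 from -2.87 to 0.051 and Myh1 from -1.82 to 0.088. In the interaction it moved Ear1 from -0.28 to 0.0023, Ear2 from -0.0066 to 0.43, Marco from -0.16 to 0.17, Siglecf from -0.10 to 0.089 and Csf1r from -0.16 to 0.090. The other 1585 values of single genes kept their direction and their side of the threshold.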

Other observations

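Epithelial and stromal genes measured beside the macrophage genes had no call with both sexes pooled. Among alveolar type 2 cell genes the pooled log2 fold change was -0.47 for Cxcl15, -0.22 for Lamp3 and -0.20 for Napsa, and among airway genes -0.45 for Scgb1a1, the club cell secretoglobin, -0.38 for Cyp2f2 and -0.54 for Krt5, a basal cell keratin that was at 41.7 CPM in room air male 1. Without that lung the Krt5 value was -0.048, and without room air female 5 it was -0.10 for Lamp3, -0.11 for Napsa, -0.25 for Scgb1a1 and -0.21 for Cyp2f2. The collagens Col1a1 and Col3a1 of matrix fibroblasts had -0.53 and -0.54, and Mfap5 had -0.27. The adjusted p was 0.927 for each of these, and over all alternatives it ran from 1.7e-10 to 1.0 for Col1a1, from 2.2e-10 to 1.0 for Col3a1, from 0.095 to 1.0 for Mfap5 and from 0.035 to 1.0 for Cxcl15, the lowest with RUVr factors in the fit. RUVr fits also gave the lowest adjusted p of Lamp3, 0.0076, Napsa, 0.015, and Krt5, 0.0072. For Scgb1a1 and Cyp2f2 the lowest were 0.304 and 0.325. Lymphatic endothelial genes had 0.22 for Lyve1, 0.09 for Prox1 and -0.07 for Flt4, with 0 of 5 called. Lyve1 ran from 0.115 to 0.35 when single lungs were left out, and its lowest adjusted p over all alternatives was 0.00076. Skeletal muscle genes had -2.59 for Acta1, -1.56 for Myh1 and -1.50 for Ckm, and their summed level was 2291 CPM in room air male 1 and 116 to 198 CPM in the other lungs. Without room air male 1 they had 0.051 for Acta1, 0.088 for Myh1 and -0.17 for Ckm.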
